A study of Drosophila melanogaster with 15 samples.

Results

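Of the 15 libraries of the series 5 come from newly eclosed flies, and they compare RNAi against Bap60 with RNAi against mCherry in nuclei of the mushroom body. They were chosen by their labels: 2 knockdown and 3 control libraries of flies 0 to 3 hours after eclosion, scaled and fitted without the 10 libraries of mature flies. All flies were male. The knockdown flies were UAS-unc84::GFP/+; R14H06-Gal4/UAS-Bap6032503 and the controls UAS-unc84::GFP/+;R14H06-Gal4/UAS-mCherryRNAi, so both groups carry the tagged nuclear envelope protein and the mushroom body driver R14H06-Gal4, and both express a hairpin. The mature flies, used below for the comparison of ages and for an alternative fit on all 15 libraries, had the same genotypes and were 1 to 5 days old. Tagged nuclei were isolated by INTACT, an affinity capture of nuclei, from flies kept at 25 °C and 70% humidity. PicoPure served for RNA extraction and a Nugen Ovation kit for Drosophila for the libraries. The control hairpin targets a fluorescent protein that flies do not have, and no other difference that came with either hairpin line can be told apart from the knockdown. Whether replicate libraries stem from different collections of flies is not stated, and p-values therefore reflect only how much libraries vary, some of which may be technical. The labels give no batch.

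Bap60 is an accessory subunit of the Brahma complex, the fly form of SWI/SNF, which uses ATP to move or evict nucleosomes and so changes which promoters and enhancers are open to transcription factors. The mushroom body is the olfactory learning centre of the fly brain. Its intrinsic neurons, the Kenyon cells, form memories through dopamine signals that reach the cAMP pathway and the synapses of these cells. In the first hours after eclosion the adult fly expands its wings and tans its cuticle, and its brain circuits are still maturing.

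Total gene counts were 45547974 and 53143845 in the knockdown libraries 1 and 2 and 37879789, 43900119 and 45731087 in controls 1, 2 and 3. Libraries of the same group varied more than those of mature flies: the common biological coefficient of variation was 0.847, against 0.221, over 11739 and 9175 genes. It was 0.416 over the 8809 genes that pass a stricter filter. Control 1 stood apart, at −108 on the first principal component (37.1% of the variance) against 95.6 and 78.1 for controls 2 and 3 and −31 and −34.5 for the knockdown libraries, and limma-voom weighted it least of the 5 (0.554, others 0.922 to 1.52). Results without it are given with each gene group below. The Kenyon cell genes ey, toy, dac, Mef2 and rut, which the mushroom body should express, were present in all 5 libraries, with ey between 381 and 702 CPM, that is counts relative to the library's total. The astrocyte marker alrm and the blood-brain barrier marker moody were at 0 in each library, while the glial gene repo was at 21.3 and 24.1 CPM in the knockdown and 27.7, 30.3 and 19.95 CPM in the control libraries.

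Levels are CPM scaled by TMM, a method that sets libraries to a common level from the bulk of genes, and are listed in the order of the library numbers. A fold change is the log2 ratio of knockdown to control from edgeR's quasi-likelihood fit, with its standard error (SE), and every adjusted p comes from that test with Benjamini-Hochberg adjustment over all 11739 genes tested, unless another tool is named. A gene is called at an adjusted p under 0.05.

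Bap60 itself (X, 13157445 to 13159508) was at 5.03 and 7.63 CPM in the knockdown libraries and 11.8, 4.97 and 11.1 CPM in the controls. Control 2 was the lowest of the 5, so the groups overlapped. The means were 6.33 and 9.31 CPM, and a two-sided exact permutation test gave p = 0.4, where 2 against 3 libraries cannot go below 0.1 (edgeR log2 −0.56, SE 0.46, adjusted p = 0.76). The labels' knockdown is thus not detectable from the Bap60 transcript in nuclei of these flies. Of the 12 SWI/SNF genes on a list of complex members, 11 were not called. The median log2 of the 12 was −0.24 with 8 negative, and 3 were lower in both knockdown libraries than in any control (14.3% of all tested genes were). The ATPase gene brm was at 76.1 and 84.8 CPM in knockdown and 72.9, 74.6 and 77.4 CPM in control libraries. The member that was called, Act5C, is a general actin gene that the complex shares with the cytoskeleton and is described with the actins.

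Between the groups, 387 of 11739 genes were called (3.30%), of which 166 were higher in the knockdown (1.41%) and 221 lower (1.88%), and 1634 had an unadjusted p under 0.05. All 387 were separated between the groups, as were 30.8% of all tested genes (16.4% higher and 14.3% lower in the knockdown). With upper-quartile scaling 62.3% of calls were higher, against 42.9% with TMM, so the balance of directions depends on the scaling. The count depends on single libraries: 70, 43 and 20 genes were called without control 1, 2 or 3, which leaves 2 libraries a group, 291 without knockdown 1 and 265 without knockdown 2. The last pair of fits has 1 knockdown library, which is assumed to vary like the controls, so they check a call less than the others do. In all 5 fits 8 of the 387 were called. Without robust estimation of the spread 179 genes were called, 175 of them among the 387. Genes called higher were long. Their median length in the genome was 23146 bases, against 4216 for genes called lower and 2411 for all tested genes. Restricted to genes averaging 20 CPM or more, the medians were 24666, 4493 and 7324.5 bases. Of the 4027 tested genes at that level 159 were called higher and 209 lower, more often than among all tested genes. Counts of called members in the gene lists below stand against the 3.30% called of all tested genes, most of them less abundant. The lists and their members were chosen with earlier results of these data known, so their shares may be partly set by that choice. Genes were split by length into 5 equal classes: in the longest class (7448 bases or more) 5.42% were called higher and 2.43% lower, and in the next 1.09% and 3.69%. The median log2 deviation of the longest class from the control mean was 0.144 and 0.104 in the knockdown libraries and −0.0323, 0.0327 and 0.0127 in the controls. The shortest class deviated by 0.264 and 0.32 in the knockdown and by 0.139, −0.19 and 0 in the controls, which lay further apart. In that class 0.173% of genes were called higher. The fit's median log2 was 0.0362 in the shortest class and 0.1 in the longest, and it was negative in the classes between. The part of length in the calls of single genes was not tested.

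**Figure D1:**
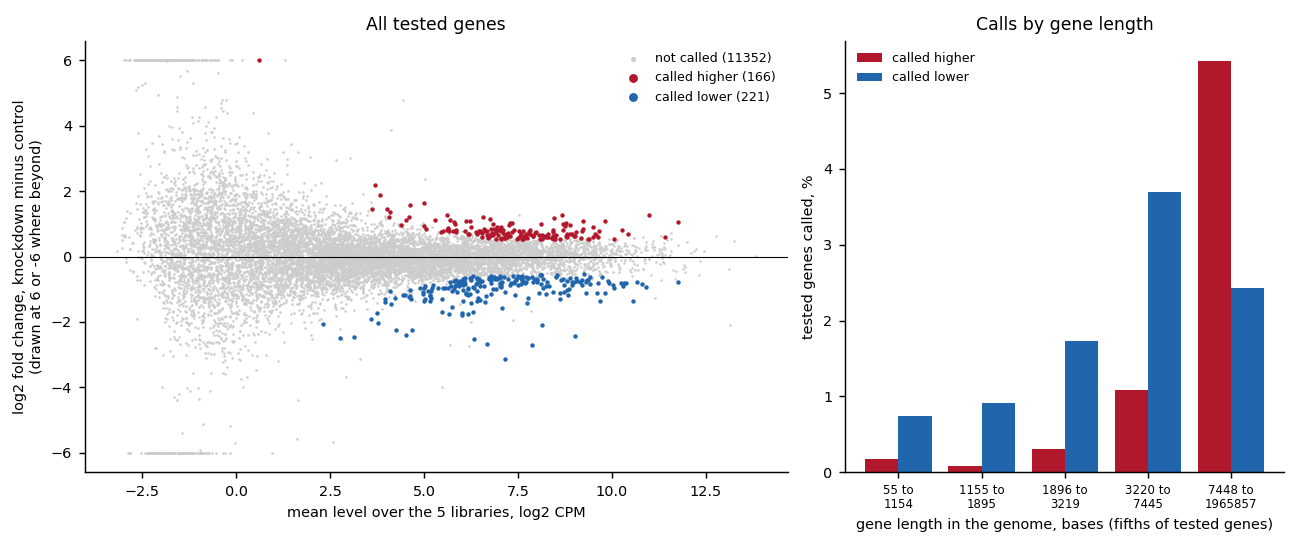
Left, log2 fold change (knockdown minus control) of each of the 11739 tested genes against its mean level, with the 166 genes called higher in red and the 221 called lower in blue. Right, percent of genes called in each of 5 classes of gene length (bases), where calls of higher genes are most frequent in the longest class (5.42%) and calls of lower genes in the next (3.69%).

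Energy metabolism held some of the clearest decreases. Ldh (3L, 6259105 to 6262694), the enzyme that turns pyruvate into lactate and back, was at 22.1 and 29.5 CPM in the knockdown and 63.7, 118 and 88.2 CPM in the controls (log2 −1.80, SE 0.25, adjusted p = 0.00457). MFS3 (2L, 1143201 to 1147395), a transporter of the major facilitator superfamily, was at 4.73 and 8.14 against 29.2, 38.3 and 35.0 CPM (log2 −2.40, SE 0.30, adjusted p = 0.0023). For both genes the lowest control was more than 2-fold above the highest knockdown library. Mct1, a monocarboxylate transporter gene of the family that carries lactate and pyruvate, moved the other way, at 67.0 and 83.7 CPM in the knockdown and 34.6, 29.9 and 30.2 CPM in the controls (log2 1.26, SE 0.18, adjusted p = 0.00388). Of the glycolytic enzymes, Gapdh2 was at 119 and 115.04 against 202, 204 and 194 CPM (log2 −0.77, SE 0.13, adjusted p = 0.0078), and Pgi (log2 −0.87), Ald1 (log2 −0.61) and Eno (log2 −0.58) fell too. Hexokinase Hex-A, at 276 and 180.3 CPM in knockdown and 306.7, 353 and 326 CPM in control libraries (log2 −0.53, SE 0.17, adjusted p = 0.132), and pyruvate kinase PyK, at log2 −0.23 (adjusted p = 0.539), were not called. Altogether 1 of 23 tested members of the glycolysis and lactate list rose and 6 fell (30.4% called, against 3.30% of all genes). Its members were chosen with earlier results of these data known, so this share may be partly set by that choice. The list's median log2 was −0.23, against 0.0102 for all genes. MFS3 kept its call without any 1 library. Control 3 decided the calls of the other 6 (adjusted p 0.0749 to 0.286 without it), control 1 or 2 those of Gapdh2, Pgi, Ald1 and Eno (0.0505 to 0.0716 and 0.0816 to 0.182), knockdown 1 those of Pgi, Ald1 and Eno (0.056 to 0.434) and knockdown 2 those of Ald1 and Eno (0.051 to 0.114). Ald1 was not called in a fit on all 15 libraries (0.0944), nor Eno with upper-quartile scaling (0.0558). Neither was called without robust estimation (0.05 to 0.06).

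**Figure D2:**
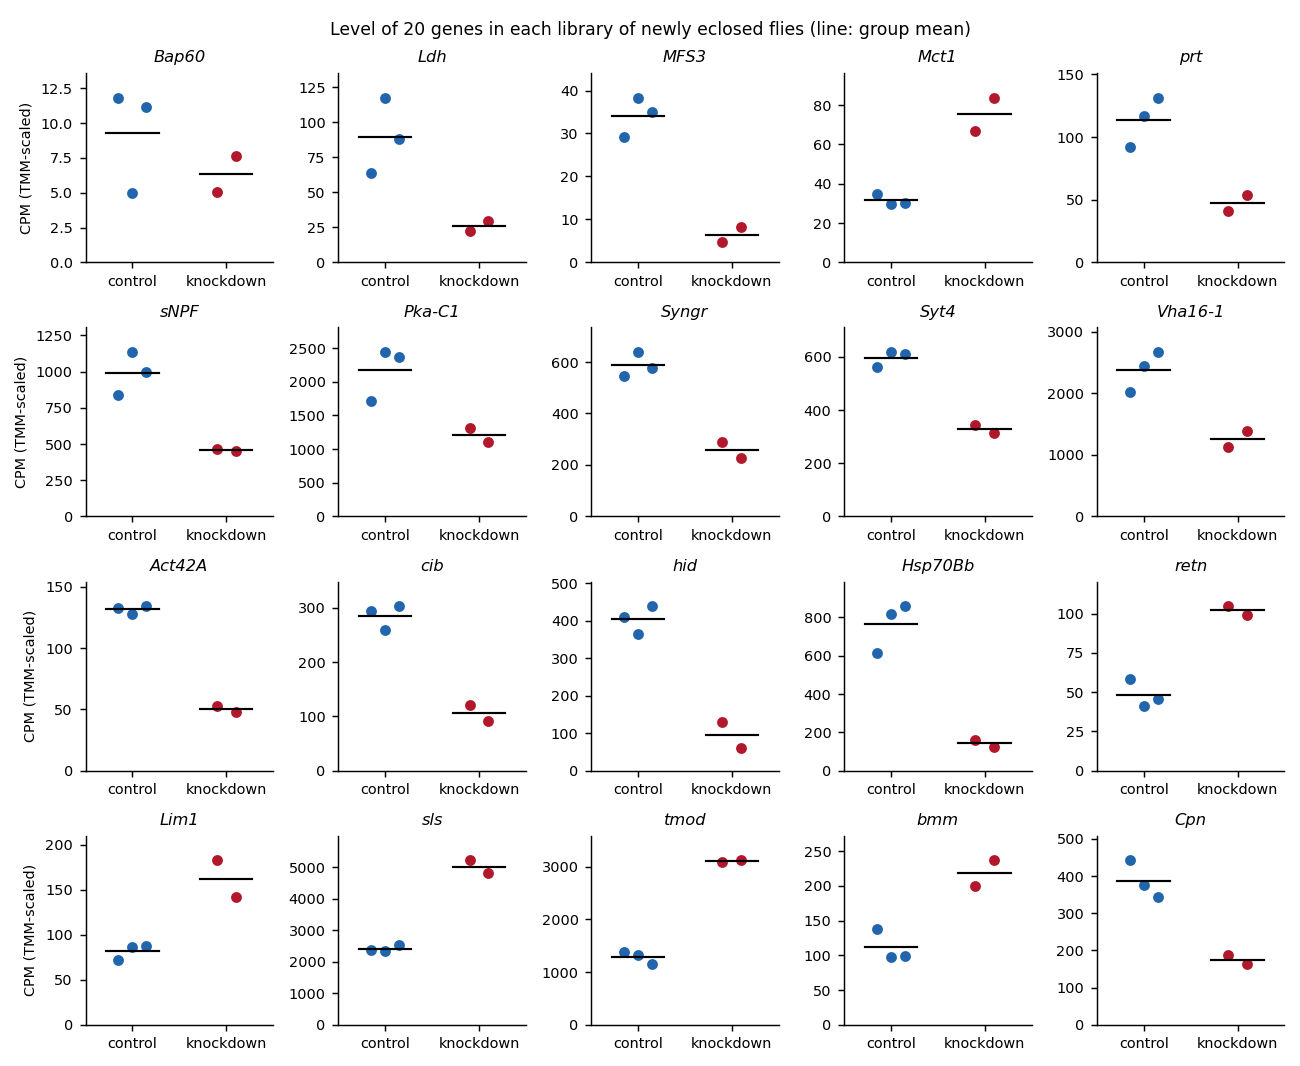
Level of 20 genes in each library (CPM, y axes start at 0), with 3 control libraries in blue, 2 knockdown libraries in red and the group mean as a line. Except for Bap60, where control 2 lies beside the knockdown libraries, the groups do not overlap, and Mct1, retn, Lim1, sls, tmod and bmm are higher in the knockdown.

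Kenyon cell genes were lower where they changed. Of 20 marker genes, all tested, 7 were called lower (35%, against 1.88% of all genes) and none higher. In both knockdown libraries 12 were lower than in any control (background 14.3%). The list's median log2 was −0.45, against 0.0102 over all genes. sNPF (2L, 20027915 to 20056373), the precursor of short neuropeptide F and the most abundant peptide gene of the list of neuropeptides, was at 463 and 453 CPM in the knockdown and 840.4, 1135 and 998 CPM in the controls (log2 −1.11, SE 0.16, adjusted p = 0.00377). The vesicular transporter gene prt (3R, 23696372 to 23699027) was at 41.3 and 53.8 against 92.4, 117 and 131 CPM (log2 −1.26, SE 0.19, adjusted p = 0.00502), and the DnaJ-domain gene jdp at 377 and 361 against 705, 921 and 784 CPM (log2 −1.12, SE 0.15, adjusted p = 0.00375). In each case both knockdown libraries were below every control, and control 1 was the lowest control. Another 4 of the 7 act in memory signalling. Pka-C1 (2L, 9682315 to 9699297), the catalytic subunit of protein kinase A, was at 1318 and 1108 against 1721, 2442 and 2362 CPM (log2 −0.84, SE 0.18, adjusted p = 0.0213). Its regulatory subunit Pka-R2 had log2 −0.82 (adjusted p = 0.0159), the dopamine receptor Dop1R1 log2 −0.75 (0.0234) and 14-3-3zeta, an adaptor protein needed for olfactory learning, log2 −0.80 (0.0133).

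The defining transcription factors of these cells were not called: ey was at 381 and 456 CPM in the knockdown and 412, 702 and 557 CPM in the controls, toy at 719 and 619 and 705, 1053 and 971 CPM, and Mef2 at 882 and 874 and 896, 1195 and 1147 CPM. For ey and toy control 1 was inside the range of the knockdown libraries, and the other controls were above it. The adenylyl cyclase gene rut, at 1526 and 1719.8 against 1909.5, 2638 and 2721 CPM, was not called (adjusted p = 0.101), nor was dnc, the phosphodiesterase that degrades cAMP (1415 and 1484 against 912, 1317 and 1225 CPM, log2 0.33). The summed level of the list was 17320 and 16820 CPM in the knockdown and 19820, 27760 and 25700 CPM in the controls. In bulk nuclei, fewer Kenyon cells and less RNA per cell cannot be told apart. Without control 2 or control 3, none of the 7 was called (adjusted p 0.0518 to 0.217 and 0.0898 to 0.301). 14-3-3zeta also lost its call without control 1 (0.0502), Pka-R2 and Dop1R1 without knockdown 1 (0.0503 to 0.156), and these 2 with Pka-C1 and 14-3-3zeta without knockdown 2 (0.0601 to 0.109). Dop1R1 was not called in the fit on all 15 libraries (0.0537). Pka-C1, 14-3-3zeta, Pka-R2 and Dop1R1 were not called without robust estimation (0.05 to 0.082).

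Several genes of the presynaptic terminal were lower. Of 38 tested genes of the synaptic vesicle and active zone list 7 fell (18.4%) and none rose, with a median log2 of −0.34. Of all tested genes 1.88% were called lower, and 209 of the 4027 that average 20 CPM or more. In both knockdown libraries 20 were lower than in any control and 3 were higher (background 14.3% and 16.4%). Syngr (2R, 13841761 to 13846255), the vesicle membrane protein synaptogyrin, was at 291 and 226 CPM in the knockdown and 545, 639 and 576 CPM in the controls (log2 −1.18, SE 0.16, adjusted p = 0.00335). Syt4, a synaptotagmin, was at 346 and 312.1 against 563, 618 and 611 CPM (log2 −0.86, SE 0.14, adjusted p = 0.00606), and nrv2, a beta subunit of the Na,K-ATPase that is also on the glial list, at 114.6 and 129 against 227, 228 and 211 CPM (log2 −0.87, SE 0.13, adjusted p = 0.00575). In these genes every control was above both knockdown libraries by more than the spread within either group. Rop, the fly Munc18 that binds syntaxin, was at 78.8 and 76.8 against 127, 128 and 115.4 CPM (log2 −0.67, SE 0.14, adjusted p = 0.0223), and the endophilin gene EndoA (log2 −0.58), the vesicle chaperone gene Csp (log2 −0.56) and comt, the NSF that disassembles SNARE complexes (log2 −0.70), complete the 7. The active zone scaffold gene brp was at 2939 and 2572 CPM in the knockdown and 2060.3, 3077 and 2951 CPM in the controls (log2 0.03), Rim at 2681 and 2370.2 and 1969, 2961 and 2815 CPM, and the calcium sensor Syt1 at 2545 and 1933 and 2273, 2876 and 2750.0 CPM. Knockdown and control ranges overlapped in these 3 genes, which were not called. The list's count fell to 4 with upper-quartile scaling, where EndoA, Csp and comt were not called (adjusted p 0.0632 to 0.0908), and Csp and comt were not called with RLE scaling (0.0555 to 0.0622). Without control 3 none of the 7 was called (0.0749 to 0.315), without control 2 all but Syngr lost their calls (0.0758 to 0.287), without control 1 Rop, EndoA, Csp and comt did (0.0568 to 0.152), without knockdown 1 Rop, EndoA and Csp (0.127 to 0.353) and without knockdown 2 Rop, EndoA, Csp and comt (0.106 to 0.387). Fitted without robust estimation, EndoA, Csp and comt were not called (0.0645 to 0.115).

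Some genes on the list of transmitter supply were lower as well, not all of them particular to transmitters. Of 23 tested members of the list of transmitter synthesis and transport 5 were lower (21.7%, against 1.88% of all genes) and none higher (median log2 −0.31). Besides prt they were b, e, ChT and Gabat. The aspartate decarboxylase gene b (2L, 13821248 to 13823979), which makes beta-alanine, was at 44.4 and 30.4 CPM in the knockdown and 108, 83.4 and 110.2 CPM in the controls (log2 −1.43, SE 0.20, adjusted p = 0.00388). The product of e (3R, 21229839 to 21237177) couples beta-alanine to dopamine and histamine, in pigment formation of the cuticle and in transmitter recycling, and e was at 991 and 565 against 2235, 1784 and 2021 CPM (log2 −1.37, SE 0.22, adjusted p = 0.0077). Knockdown 2 was the lowest library for both genes. The high-affinity choline transporter gene ChT, which supplies choline for acetylcholine, was at 293 and 273 against 459, 549 and 529.9 CPM (log2 −0.86, SE 0.14, adjusted p = 0.00744), and the GABA transaminase gene Gabat at 23.9 and 38.8 against 47.2, 65.3 and 72.5 CPM (log2 −0.98, SE 0.24, adjusted p = 0.0457). The tyrosine hydroxylase gene ple, the most abundant member, was at 1820.5 and 654 CPM in the knockdown and 3242, 2563 and 3101 CPM in the controls. Its knockdown libraries were both below the controls but far apart, and it was not called (adjusted p = 0.344). Among peptide genes AstC, which encodes allatostatin C, was at 7.87 and 8.66 against 21.1, 17.2 and 22.5 CPM (log2 −1.29, SE 0.30, adjusted p = 0.0312). With sNPF it made 2 lower and no higher calls among 26 tested (7.69%, against 3.30% of all genes). The leak potassium channel gene Task7 was the 1 called of 29 ion channel genes (3.45%, close to the 3.30% called of all genes), at 10.7 and 22.2 against 38.4, 48.2 and 39.6 CPM (log2 −1.35, SE 0.29, adjusted p = 0.0233, and log2 −1.97 without knockdown 2), while Sh, slo and cac were not called and had log2 0.18, 0.01 and −0.07. Without control 3 the calls of b, e, ChT, Gabat, AstC and Task7 ended (adjusted p 0.0749 to 0.326), without control 1 all of these but ChT (0.0613 to 0.112), without control 2 all but b (0.0587 to 0.257), without knockdown 1 those of Gabat, AstC and Task7 (0.0843 to 0.251) and without knockdown 2 that of AstC (0.0822). In a fit on all 15 libraries b and e were not called (0.0636 and 0.349), nor was Gabat with upper-quartile scaling (0.0589). Gabat, AstC and Task7 were not called without robust estimation (0.0606 to 0.125).

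Several receptors rose. The serotonin receptor gene 5-HT2B (3R, 8578205 to 8629996) was at 159.9 and 157 CPM in the knockdown and 95.3, 92.5 and 95.7 CPM in the controls (log2 0.74, SE 0.13, adjusted p = 0.00862). GABA-B-R3, a metabotropic GABA receptor, was at 116 and 118 against 77.3, 80.4 and 75.2 CPM (log2 0.59, SE 0.14, adjusted p = 0.0347), and the octopamine and tyramine receptor gene Oct-TyrR at 148 and 147 against 106, 97.5 and 101 CPM (log2 0.54, SE 0.13, adjusted p = 0.0462). Within each group these 3 genes differed little between libraries, and the change was less than 2-fold. With Dop1R1 lower, they made 3 higher and 1 lower call among 37 tested neurotransmitter receptor genes (10.8%, against 3.30% of all genes). These 4 genes exceed 20 CPM, and of the 4027 tested genes that average 20 CPM or more 159 were called higher and 209 lower. The median log2 of these receptor genes was −0.15, with 23 of 37 negative. The abundant nicotinic receptor genes nAChRalpha6, nAChRbeta1 and nAChRalpha7 were not called, at log2 0.06, 0.26 and 0.51. Outside that list, the receptor gene for the peptide proctolin, Proc-R, was at 77.4 and 75.1 against 43.9, 24.3 and 37.0 CPM (log2 1.12, SE 0.22, adjusted p = 0.0146). The 4 higher calls ended without control 1 (adjusted p 0.0588 to 0.0875), 2 (0.0774 to 0.209) or 3 (0.106 to 0.275), and those of GABA-B-R3 and Oct-TyrR also without knockdown 1 (0.161 to 0.251) or 2 (0.146 to 0.159). GABA-B-R3 and Proc-R were not called in the fit on all 15 libraries (0.0565 to 0.185). These 2 and Oct-TyrR were not called without robust estimation (0.0565 to 0.0707).

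Guidance and adhesion genes moved both ways. Of 47, all tested, 4 rose and 3 fell (14.9% called, against 3.30% of all genes), with a median log2 of 0.14. In both knockdown libraries 23 were higher than in any control (background 16.4% of all genes). Of the higher calls, sli, beat-IIa and beat-Ia span 52624, 46116 and 31720 bases. They lie in the longest class of genes, where 5.42% were called higher. The part of length in the counts of this list was not tested. sli (2R, 15869495 to 15922118), the secreted ligand of the Robo receptors, was at 418 and 449.6 CPM in the knockdown and 293, 293 and 294 CPM in the controls (log2 0.56, SE 0.13, adjusted p = 0.0293). The immunoglobulin-domain genes beat-Ia (log2 0.75, SE 0.16) and beat-IIa (log2 0.62, SE 0.13) and the cadherin gene CadN2 (log2 0.54, SE 0.13) rose as well, with adjusted p of 0.0241, 0.0168 and 0.041. The semaphorin receptor gene PlexA was at 457 and 509 against 675, 749 and 693 CPM (log2 −0.55, SE 0.14, adjusted p = 0.0471), the leucine-rich repeat gene trn had log2 −0.72 (adjusted p = 0.0347), and kek1, an inhibitor of the EGF receptor, was at 200.3 and 137 against 259, 319.9 and 283 CPM (log2 −0.77, SE 0.17, adjusted p = 0.0273). With upper-quartile scaling the list had 9 higher and 1 lower calls, PlexA and trn not among them (adjusted p 0.0559 to 0.0954), and PlexA was also not called with RLE scaling (0.0649) nor, with CadN2, in the fit on all 15 libraries (0.0539 to 0.0786). All 7 calls ended without control 1 (adjusted p 0.0656 to 0.112), 2 (0.0819 to 0.296) or 3 (0.223 to 0.372), all but kek1 without knockdown 1 (0.0553 to 0.598) and all but beat-Ia without knockdown 2 (0.104 to 0.214). Without robust estimation all but beat-IIa lost their calls (0.0555 to 0.0916).

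**Figure D3:**
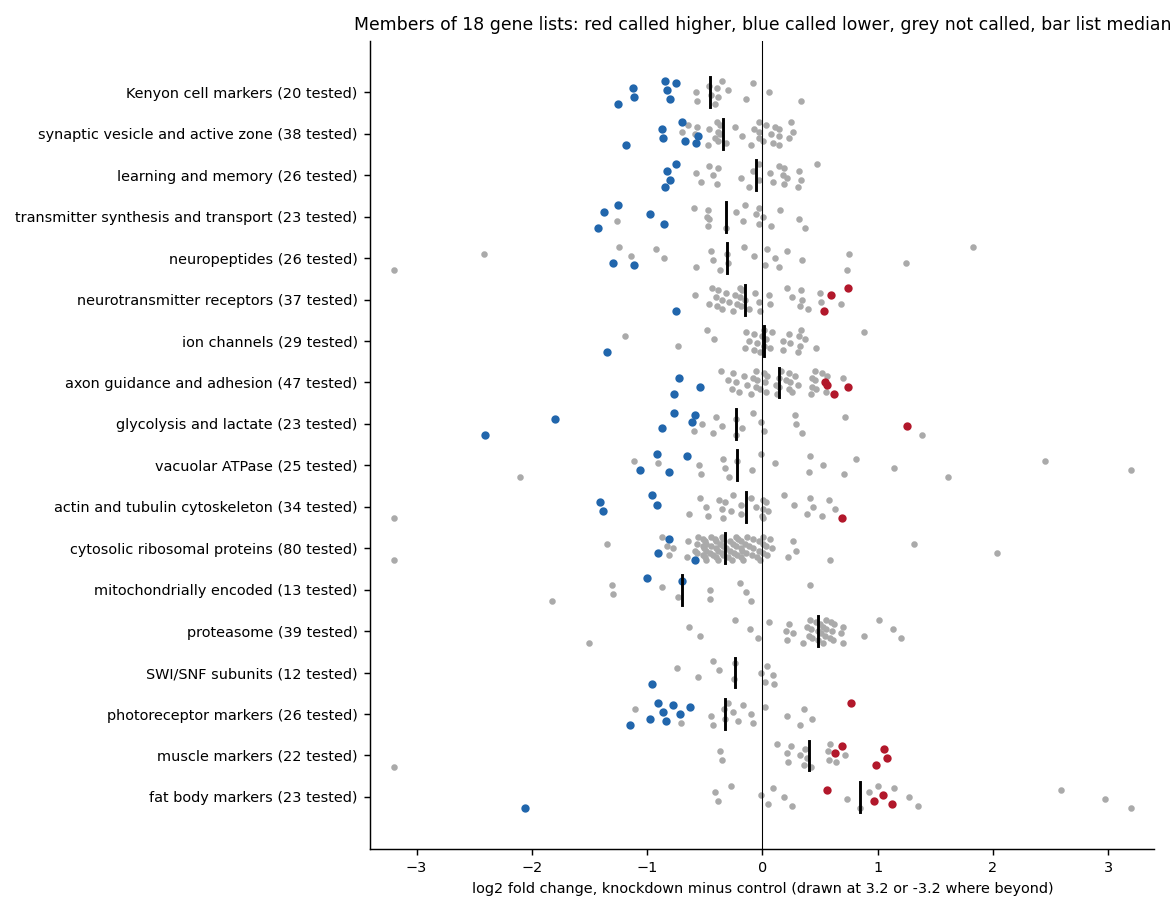
Log2 fold change (knockdown minus control) of each tested member of 18 gene lists, with called members in red (higher) or blue (lower), others in grey and the list median as a bar. Called members of the Kenyon cell, synaptic and vacuolar ATPase lists lie below 0, those of the muscle list above 0, and the proteasome list has a median of 0.48 with no called member.

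Several genes of transcriptional regulators, gathered from the largest changes and from other lists, are described together here, with no count over such genes as a group. retn (2R, 23632610 to 23654820), an ARID-domain factor, was at 105 and 99.4 CPM in the knockdown and 58.3, 40.9 and 45.3 CPM in the controls (log2 1.08, SE 0.18, adjusted p = 0.00742). Lim1 (X, 8756539 to 8805804), a LIM-homeodomain factor, was at 182 and 142 against 71.5, 86.2 and 87.4 CPM (log2 0.99, SE 0.16, adjusted p = 0.00627). In both genes the lowest knockdown library was well above the highest control. Kah, a zinc finger gene of the Snail family, was at 151 and 172 against 84.9, 79.4 and 53.3 CPM (log2 1.16, SE 0.19, adjusted p = 0.00631), and the homeodomain cofactor gene hth, which is expressed in many neurons, at 1346 and 1286 against 935, 921 and 856 CPM (log2 0.54, SE 0.13, adjusted p = 0.0452). Lim1 and hth are the 2 calls among 15 tested markers of other neuron types (13.3%, against 3.30% of all genes), a list with 9 negative members and a median log2 of −0.17 (VGlut −0.48, Gad1 −0.31 and ple −1.26, not called). The GATA factor gene srp and its cofactor ush, markers of blood cells, had log2 0.93 and 0.84. They are 2 higher calls beside 1 lower call, Pxn, among 15 tested blood cell markers (20% called, against 3.30% of all genes), of which 12 had a negative log2 (median −0.34). The defining marker Hml was at 14.95 and 12.97 CPM in the knockdown and 42.8, 17.8 and 29.96 CPM in the controls and NimC1 at 2.97 and 2.53 against 4.92, 5.3 and 2.68 CPM, and neither was called. The clock gene tim was at 137 and 140.2 against 99.1, 77.4 and 89.9 CPM (log2 0.64, SE 0.15, adjusted p = 0.0326), 1 call in 19 clock genes (5.26%, against 3.30% of all genes). In the other direction, salm (2L, 11434311 to 11445614), a zinc finger gene of the Spalt family, was at 45.0 and 23.1 against 118, 92.7 and 117 CPM (log2 −1.69, SE 0.26, adjusted p = 0.00834), with knockdown 2 the lowest. Without control 3 all 8 calls ended (adjusted p 0.0784 to 0.405), without control 1 all but retn (0.0555 to 0.0856), without control 2 all but salm (0.0522 to 0.207), and without knockdown 1 (0.0849 to 0.418) or knockdown 2 (0.0588 to 0.12) those of hth, srp and tim. Kah, tim and hth were not called in the fit on all 15 libraries (0.0965 to 0.527), nor was hth with RLE scaling (0.0514). hth, srp and tim were not called without robust estimation (0.0527 to 0.0853).

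The proton pump of vesicles and endosomes was lower in part. Of 25 tested vacuolar ATPase genes 4 fell (16%, against 1.88% of all genes) and none rose. In both knockdown libraries 12 were lower than in any control and 2 were higher (background 14.3% and 16.4%). The median log2 was −0.22, or −0.14 with upper-quartile scaling, and 10 of the 25 had a positive log2. Vha16-1 (2R, 6625242 to 6633090), the proteolipid of the membrane ring, was at 1129 and 1388 CPM in the knockdown and 2021, 2441 and 2674 CPM in the controls (log2 −0.92, SE 0.17, adjusted p = 0.0102). Vha68-1, a form of the catalytic subunit, was at 85.7 and 92.8 against 159, 162 and 148 CPM (log2 −0.81, SE 0.14, adjusted p = 0.0082), Vha36-1 at 19.7 and 22.4 against 48.7, 37.0 and 45.8 CPM (log2 −1.06, SE 0.22, adjusted p = 0.0174) and VhaPPA1-1 at 88.6 and 106 against 145, 156 and 159 CPM (log2 −0.66, SE 0.14, adjusted p = 0.0263). In all 4, knockdown 1 was the lowest library and both knockdown libraries were below the controls. Other abundant members were not called: Vha55 had log2 −0.53 (adjusted p = 0.0584) and Vha100-1 log2 −0.29 (0.375). The calls ended without control 2 (0.0774 to 0.189), control 3 (0.0999 to 0.253) or knockdown 1 (0.056 to 0.348), and all but that of Vha16-1 without control 1 (0.056 to 0.0749). Vha16-1 and VhaPPA1-1 were not called without robust estimation (0.05 to 0.0584).

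The nonmuscle actin genes Act42A and Act5C and an actin-binding gene fell, in a cytoskeleton list that moved both ways. Act42A (2R, 6013910 to 6015689) was at 52.999 and 47.7 CPM in the knockdown and 133, 127 and 134 CPM in the controls (log2 −1.38, SE 0.15, adjusted p = 0.00186), and Act5C (X, 5900861 to 5905399) at 699 and 653 against 1194, 1349.7 and 1405 CPM (log2 −0.96, SE 0.15, adjusted p = 0.00502). cib (X, 4106113 to 4110981), a beta-thymosin protein that binds actin monomers, was at 122 and 92.3 against 294, 259 and 303.2 CPM (log2 −1.41, SE 0.16, adjusted p = 0.00186). The 3 controls of Act42A lay close together and more than 2-fold above both knockdown libraries. sqh, the regulatory light chain of nonmuscle myosin, was at 32.3 and 36.2 against 54.9, 60.2 and 78.7 CPM (log2 −0.92, SE 0.20, adjusted p = 0.0242). These are the 4 lower calls among 34 tested actin and tubulin cytoskeleton genes, and Tm2, described with the muscle genes, is the 1 higher call (14.7% called, against 3.30% of all genes). The list's median log2 was −0.14, with 14 positive and 20 negative members. In both knockdown libraries 12 were lower than in any control and 9 were higher (background 14.3% and 16.4%). The calls of Act42A and cib held without any 1 library. Act5C and sqh were not called without control 2 (adjusted p = 0.076 and 0.142) or control 3 (0.121 and 0.234), nor sqh without control 1 (0.0669), knockdown 1 (0.0835) or robust estimation (0.0654).

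Genes of the ribosome and of mitochondria leaned lower with few calls. Of 80 tested cytosolic ribosomal protein genes 3 fell (3.75%, close to the 3.30% called of all genes) and none rose. In both knockdown libraries 28 were below all controls (background 14.3%), and the median log2 was −0.33. RpLP0 (3L, 22075867 to 22077487) was at 100.4 and 131 CPM in the knockdown and 203, 197 and 207 CPM in the controls (log2 −0.81, SE 0.15, adjusted p = 0.0102), RpS29 at 51.1 and 67.4 against 110.4, 107 and 116 CPM (log2 −0.91, SE 0.16, adjusted p = 0.00888), and RpS3 had log2 −0.58 (adjusted p = 0.0381). The translation initiation gene eIF3l was at 60.5 and 65.8 against 96.6, 108 and 95.4 CPM (log2 −0.67, SE 0.15, adjusted p = 0.0319), the 1 call among 38 translation factor genes (2.63%). Of the 13 transcripts that mitochondria encode 2 fell (15.4%, against 3.30% called of all genes). mt:Cyt-b, of complex III, was at 337 and 238 against 698, 525 and 504 CPM (log2 −1.002, SE 0.19, adjusted p = 0.0107), and mt:ND5, of complex I, at 189 and 188 against 338, 277 and 302.3 CPM (log2 −0.70, SE 0.14, adjusted p = 0.0149). The mitochondrial transcripts summed to 2728 and 2260 CPM in the knockdown and 4463, 3158 and 3298 CPM in the controls, and these transcripts are made outside the nucleus. Of 77 nuclear genes of oxidative phosphorylation only ND-20 was called (10.6 and 9.99 against 20.3, 22.1 and 22.5 CPM, log2 −1.07). Proteasome genes pointed the other way with no call in edgeR: the median log2 over 39 tested was 0.48, 21 were higher in both knockdown libraries than in any control (background 16.4%), 20 had an unadjusted p under 0.05, all higher, and DESeq2 called 6 and upper-quartile scaling 5. Rpn2, the most abundant, was at 241 and 268 against 167, 202 and 138 CPM (log2 0.59, adjusted p = 0.0622). The calls of RpLP0, RpS29, RpS3, eIF3l, mt:Cyt-b, mt:ND5 and ND-20 ended without control 1 (0.0613 to 0.0821), 2 (0.081 to 0.216) or 3 (0.0999 to 0.294), all but mt:Cyt-b without knockdown 1 (0.103 to 0.445), and RpS3, eIF3l, mt:Cyt-b, mt:ND5 and ND-20 without knockdown 2 (0.0512 to 0.192). RpS3, mt:Cyt-b and mt:ND5 were not called in the fit on all 15 libraries (0.0619 to 0.567), nor RpS3, eIF3l and ND-20 with upper-quartile scaling (0.0535 to 0.0688), nor ND-20 with RLE scaling (0.0535). RpS3, eIF3l, mt:Cyt-b and ND-20 were not called without robust estimation (0.0584 to 0.0766).

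Among genes of the ecdysone response and of neuronal remodelling, 2 of 27 tested rose and 3 fell (18.5% called, against 3.30% of all genes). The nuclear receptor gene Hr4 was at 159 and 161 CPM in the knockdown and 101, 103 and 101 CPM in the controls (log2 0.65, SE 0.13, adjusted p = 0.0163), and the nuclear receptor gene Eip78C had log2 0.58 (adjusted p = 0.0324). ImpL2 (3L, 4224006 to 4236147), a secreted protein that binds insulin-like peptides, was at 249 and 174 against 601, 420.0 and 530.0 CPM (log2 −1.29, SE 0.19, adjusted p = 0.00436). The other lower members were Ldh and Hr38, an orphan nuclear receptor that neuronal activity induces, at 358 and 353 against 519.5, 648 and 647 CPM (log2 −0.77, SE 0.15, adjusted p = 0.0125). The abundant members Eip93F and Eip75B were not called, at log2 0.05 and −0.15. Hr38 is also on the activity list, where it was lower with Arc1, a capsid-forming gene of synaptic plasticity (79.5 and 90.5 against 120.1, 208 and 149 CPM, log2 −0.90, SE 0.21, adjusted p = 0.0346), and the matrix metalloproteinase gene Mmp1 (1390.0 and 902 against 1962, 1800.2 and 2102 CPM, log2 −0.77, SE 0.18, adjusted p = 0.037). They are the 3 calls of 17 tested on that list (17.6%, against 3.30% of all genes). The pro-apoptotic gene hid (3L, 18167745 to 18185641) was at 129 and 60.6 against 409, 364 and 439 CPM (log2 −2.09, SE 0.32, adjusted p = 0.0233, and log2 −2.72 without knockdown 1). It was the 1 call of 26 cell death genes (3.85%, close to the 3.30% called of all genes). All 3 controls of hid were more than 2-fold above knockdown 1 and knockdown 2 was lower still. Without control 1 the calls of ImpL2, Eip78C, Hr4, Arc1, Mmp1 and hid ended (adjusted p 0.0605 to 0.135), without control 2 those of Eip78C, Hr4, Hr38, Arc1 and Mmp1 (0.11 to 0.205), without control 3 all but that of hid (0.081 to 0.333), without knockdown 1 those of Eip78C, Hr4, Hr38 and Arc1 (0.0771 to 0.271) and without knockdown 2 those of Eip78C, Hr4, Arc1 and Mmp1 (0.0512 to 0.315). ImpL2, Hr4 and Mmp1 were not called in the fit on all 15 libraries (0.0892 to 0.711), and Mmp1 also not with upper-quartile scaling (0.061). Eip78C, Arc1 and Mmp1 were not called without robust estimation (0.071 to 0.115).

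Further steep decreases, beside MFS3 and hid, were in genes outside these groups or alone in theirs. CG14961 (3L, 3330063 to 3333181) was at 34.9 and 15.5 CPM in the knockdown and 194, 219 and 249 CPM in the controls (log2 −3.13, SE 0.38, adjusted p = 0.0122, and log2 −3.82 without knockdown 1), and CG7778 (2L, 8346620 to 8351112) at 73.1 and 34.9 against 390.2, 291 and 382 CPM (log2 −2.72, SE 0.35, adjusted p = 0.015, and log2 −3.33 without knockdown 1). Hsp70Bb (3R, 12505793 to 12508139), a heat shock gene, was at 161 and 126 against 616, 818 and 859 CPM (log2 −2.42, SE 0.19, adjusted p = 6.99e-05). The knockdown libraries of Hsp70Bb were close together, at a small part of the lowest control, but the gene has near-identical copies between which reads could be split, and its count is uncertain. No other of 22 tested heat shock and chaperone genes was called (4.55% called, against 3.30% of all genes), with Hsp83 at log2 −0.11 and Hsc70-4 at log2 −0.53 (adjusted p = 0.0812). The mucin-related gene Mur18B was at 7.87 and 3.81 against 29.9, 16.4 and 37.0 CPM (log2 −2.25, SE 0.41, adjusted p = 0.0125, and log2 −2.85 without knockdown 1), the zinc transporter gene Zip71B at 37.8 and 21.7 against 114, 72.5 and 115.1 CPM (log2 −1.76, SE 0.28, adjusted p = 0.0085), and the glutathione transferase gene GstD11 at 4.14 and 4.85 against 10.6, 22.2 and 18.4 CPM (log2 −1.92, SE 0.39, adjusted p = 0.0156). Pop1 (log2 −2.49), dnd (log2 −2.26) and Elal (log2 −1.73) also fell. CG14961, CG7778 and Hsp70Bb were called without any 1 library. The other 6 lost their calls without control 3 (adjusted p 0.0522 to 0.135), all of these but GstD11 without control 1 (0.0585 to 0.0992), and Pop1, GstD11 and Elal without control 2 (0.0671 to 0.159). CG14961, dnd, Mur18B and Zip71B were not called in the fit on all 15 libraries (0.0504 to 0.212), nor Mur18B and GstD11 without robust estimation (0.055 to 0.0584).

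Genes that mark muscle were higher in the knockdown libraries. Of 22 tested muscle markers 5 rose (22.7%, against 1.41% of all genes) and none fell. In both knockdown libraries 11 were higher than in any control (background 16.4%). sls (3L, 2039681 to 2115611), the titin-like protein of the sarcomere, was at 5211 and 4800.4 CPM in the knockdown and 2382, 2333 and 2532 CPM in the controls (log2 1.05, SE 0.15, adjusted p = 0.00375). The troponin genes up, which encodes troponin T, and TpnC25D, a troponin C, rose: up was at 723 and 446 against 259, 267 and 361 CPM (log2 0.98, SE 0.21, adjusted p = 0.0303) and TpnC25D at 113 and 106 against 56.5, 58.7 and 39.8 CPM (log2 1.08, SE 0.18, adjusted p = 0.0077). Prm, paramyosin (log2 0.63), and Tm2, a tropomyosin (log2 0.69), were also called. Control 3 was the highest control for up and Tm2 and the lowest for TpnC25D. Genes named for the size of their change and outside the list went with them: tmod (3R, 30532607 to 30578905), the tropomodulin that caps actin filaments, was at 3095 and 3120.4 against 1387, 1316 and 1159.7 CPM (log2 1.27, SE 0.14, adjusted p = 0.00186). tn, the fly TRIM32 that is needed for muscle upkeep, was at 1331 and 1334 against 666, 686 and 518 CPM (log2 1.096, SE 0.15, adjusted p = 0.00375), and the hydroxylase gene Asph at 510.3 and 552 against 219, 262 and 228 CPM (log2 1.17, SE 0.14, adjusted p = 0.00186).

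The defining muscle genes were not called. Mhc, muscle myosin heavy chain, was at 4512 and 3417 CPM in the knockdown and 1945, 2465 and 2819 CPM in the controls (log2 0.72, adjusted p = 0.051), Mlc2 at 1047 and 745 and 671, 647 and 1005 CPM, and the flight muscle actin Act88F at 3.2 and 5.59 and 3.28, 1.62 and 207 CPM, with control 3 far above the rest. The summed level of the 25 markers was 21230 and 17800 CPM in the knockdown libraries and 10700, 12110 and 14200 CPM in the controls, so all 5 libraries hold muscle transcripts and both knockdown libraries hold more than any control. Whether muscle nuclei were captured in different numbers was not tested. None of the 8 muscle genes was called without control 3 (adjusted p 0.0749 to 0.275) or in the fit on all 15 libraries (0.238 to 0.725), and up, Tm2 and Prm were not called without control 1, 2 or knockdown 1 (0.0671 to 0.414), nor TpnC25D without control 1 or sls without control 2 (within the same range). Tm2 was not called with limma-voom (0.0535), nor up, Tm2 and Prm without robust estimation (0.0843 to 0.101).

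**Figure D4:**
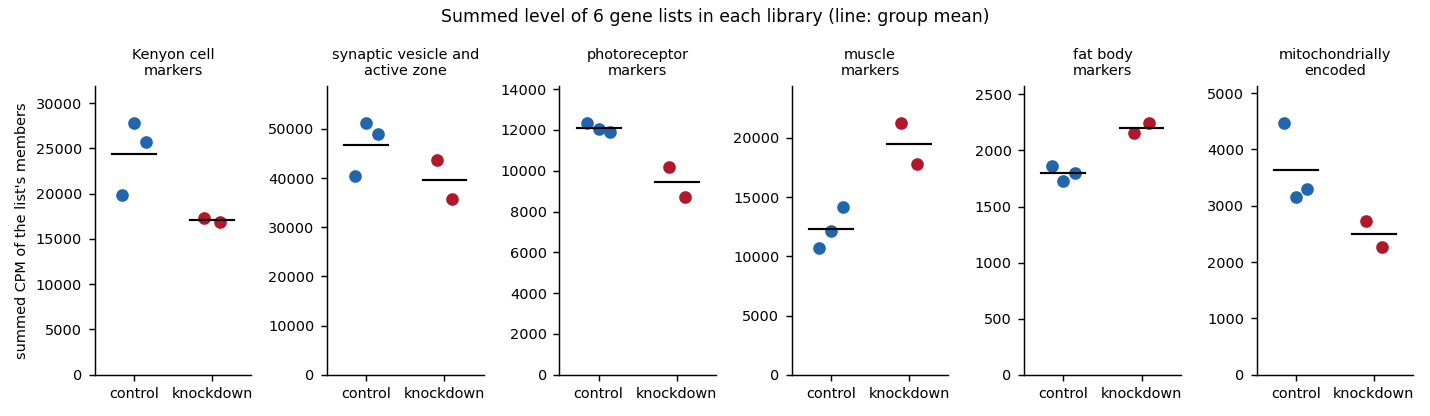
Summed level of all members of 6 gene lists in each library (CPM, y axes start at 0), with controls in blue, knockdown libraries in red and group means as lines. Kenyon cell, photoreceptor and mitochondrial sums are lower in both knockdown libraries than in every control, muscle and fat body sums are higher, and the synaptic sums overlap.

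Lipid storage genes of the fat body list rose. Of 23 tested fat body markers 4 rose and 1 fell (21.7% called, against 3.30% of all genes), and the median log2 was 0.85. The lipase gene bmm (3L, 14776496 to 14786412), the fly relative of adipose triglyceride lipase, was at 199.6 and 237 CPM in the knockdown and 137, 97.1 and 99.7 CPM in the controls (log2 0.97, SE 0.17, adjusted p = 0.00816). The perilipin genes Lsd-1 (3R, 23763857 to 23766662) and Lsd-2, whose products coat lipid droplets, rose: Lsd-1 was at 69.7 and 90.2 against 42.1, 36.9 and 37.2 CPM (log2 1.04, SE 0.18, adjusted p = 0.00774) and Lsd-2 at 451 and 382 against 257, 282 and 310.2 CPM (log2 0.56, SE 0.14, adjusted p = 0.0476). CG5966 was at 52.5 and 62.9 against 29.7, 22.5 and 27.0 CPM (log2 1.13, SE 0.20, adjusted p = 0.0085). In these genes the knockdown libraries were above every control, and control 1 was the highest control except for Lsd-2. GNBP-like3 was the lower call, at 1.67 and 1.77 against 6.02, 7.43 and 8.03 CPM (log2 −2.06, SE 0.52, adjusted p = 0.0465). Defining genes of fat body were low or not called: Lsp2 was at 1.26 and 2.31 CPM in the knockdown and 0, 0 and 0.879 CPM in the controls, Fbp1 at 19.5 and 27.5 and 7.81, 7.34 and 16.7 CPM (adjusted p = 0.123) and the lipoprotein gene apolpp at 179 and 143 and 178, 129 and 117 CPM. The list summed to 2154 and 2241 CPM in the knockdown and 1864, 1730 and 1800 CPM in the controls, and the part of fat body nuclei in the lipid gene calls was not tested. The 5 calls ended without control 2 (adjusted p 0.0768 to 0.232) or 3 (0.0999 to 0.266), all but bmm without control 1 (0.0602 to 0.138), those of Lsd-2 and GNBP-like3 without knockdown 1 (0.194 to 0.499), and that of GNBP-like3 without knockdown 2 (0.17). Lsd-2, bmm and CG5966 were not called in the fit on all 15 libraries (0.0522 to 0.212), Lsd-2 not with RLE scaling (0.0514) and GNBP-like3 not with limma-voom (0.0973) or upper-quartile scaling (0.0535). Lsd-2 and GNBP-like3 were not called without robust estimation (0.0914 to 0.0996).

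Photoreceptor genes were lower. Of 26 tested markers 8 fell and 1 rose (34.6% called, against 3.30% of all genes), with a median log2 of −0.33. In both knockdown libraries 14 were lower than in any control (background 14.3%). Cpn (3R, 12162887 to 12166186), the calcium-binding protein calphotin, was at 188 and 163 CPM in the knockdown and 442, 376 and 344 CPM in the controls (log2 −1.14, SE 0.15, adjusted p = 0.00335). The main opsin gene ninaE was at 946 and 683 against 1714, 1394 and 1483 CPM (log2 −0.91, SE 0.17, adjusted p = 0.0121). Arr1, an arrestin, was at 142 and 117 against 263, 201 and 227 CPM (log2 −0.84, SE 0.16, adjusted p = 0.0106), and Gbeta76C, a G protein beta subunit of the light response, at 115.4 and 95.2 against 208, 181 and 186 CPM (log2 −0.86, SE 0.15, adjusted p = 0.00774). Control 1 was the highest library for these 4 genes and knockdown 2 the lowest. The eye protein kinase C gene inaC (log2 −0.97), the myosin gene ninaC (log2 −0.78), the cell surface gene chp (log2 −0.72) and the lipid transfer gene rdgB (log2 −0.63) complete the 8. rdgA, a diacylglycerol kinase that is also expressed in brain neurons, was the higher call, at 1046 and 1094 against 585, 622 and 675 CPM (log2 0.77, SE 0.13, adjusted p = 0.0085). The channel genes trp (log2 −0.26) and trpl (log2 0.43) and the opsin gene Rh6 (log2 −0.33) were not called. The list summed to 10160 and 8705 CPM in the knockdown and 12320, 12060 and 11900 CPM in the controls. The fall of photoreceptor markers and that of Kenyon cell markers occur in the same 2 libraries as the rise of muscle markers, and how these bear on each other was not tested. Cpn was called without any 1 library. The other 8 calls ended without control 1 (adjusted p 0.0548 to 0.104), 2 (0.0696 to 0.222) or 3 (0.0999 to 0.291), that of rdgB without knockdown 1 (0.218), and those of Arr1, ninaE, inaC, ninaC, rdgB and chp without knockdown 2 (0.0621 to 0.226). Gbeta76C, Arr1, ninaE, ninaC and chp were not called in the fit on all 15 libraries (0.0547 to 0.14), and rdgB and chp not with upper-quartile scaling (0.0524 to 0.054). Without robust estimation ninaE, inaC, ninaC, rdgB and chp were not called (0.055 to 0.0948).

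The largest increases not yet described, chosen for their size and not as a group, include the following genes. Est-6 (3L, 12188818 to 12190705), a secreted esterase, was at 27.2 and 23.3 CPM in the knockdown and 5.34, 5.5 and 9.54 CPM in the controls (log2 1.89, SE 0.33, adjusted p = 0.00846). The odorant-binding protein genes Obp49a and Obp56d rose: Obp49a was at 36.03 and 71.8 against 15.1, 18.1 and 19.3 CPM (log2 1.63, SE 0.27, adjusted p = 0.0076) and Obp56d at 27.99 and 54.9 against 19.3, 12.2 and 9.96 CPM (log2 1.59, SE 0.33, adjusted p = 0.0233). In both, knockdown 2 was nearly 2-fold above knockdown 1. Obp44a went the other way, at 122 and 130.2 against 219, 203 and 203 CPM (log2 −0.72, SE 0.13, adjusted p = 0.00997), so 2 of 27 tested odorant-binding protein genes rose and 1 fell (11.1% called, against 3.30% of all genes). CG12483 was at 12.5 and 35.8 against 3.65, 5.97 and 6.33 CPM (log2 2.18, SE 0.42, adjusted p = 0.0137). Its size rests on knockdown 2, without which log2 was 1.23. The metalloprotease gene Meltrin, of the ADAM family, was at 827 and 939 against 409, 423 and 414 CPM (log2 1.09, SE 0.13, adjusted p = 0.0023), with narrow groups. Single calls among secreted proteins were lower: the cuticle protein gene Cpr76Bd was at 94.2 and 101 against 166, 255 and 243 CPM (log2 −1.18, SE 0.18, adjusted p = 0.00521), 1 of 76 cuticle genes, the immune peptide gene Dso1 had log2 −1.18 (adjusted p = 0.0211), 1 of 31 immune genes, and the peroxidasin gene Pxn, also a blood cell marker, log2 −0.71 (0.0335). The cuticle and immune calls are 1.32% and 3.23% of their lists, against 3.30% called of all genes. Est-6, Obp49a, Obp56d and CG12483 lost their calls without control 1 (0.0677 to 0.122) or 2 (0.0774 to 0.144), Obp49a, Obp56d, CG12483 and Meltrin without control 3 (0.0786 to 0.153), and Obp49a, Obp56d and CG12483 without knockdown 2 (0.0723 to 0.393). The calls of Obp44a, Dso1 and Pxn ended without control 1 (0.0576 to 0.0715) or knockdown 1 (0.0865 to 0.383), and these and that of Cpr76Bd without control 2 (0.0768 to 0.257) or 3 (0.101 to 0.323). Obp49a and Pxn were not called in the fit on all 15 libraries (0.0862 and 0.086), CG12483 not with limma-voom (0.0643) and Pxn not with upper-quartile scaling (0.0544). Obp56d, CG12483 and Pxn were not called without robust estimation (0.0654 to 0.0995).

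Other lists held few or no calls. No gene of 30 tested neuroblast and cell cycle genes, 27 testis markers, 18 gut and excretory markers or 8 Y-linked fertility genes was called by edgeR, with 2, 1, 0 and 1 genes at an unadjusted p under 0.05, and DESeq2 called none of them. Testis markers had a median log2 of 0.73, with 23 of 27 positive, and 1 was called higher in the fit on all 15 libraries. Among 19 tested glial markers nrv2 was the 1 call (5.26%), and among 125 detoxification genes GstD11 (0.8%), against 3.30% called of all genes. The learning and memory list had 4 lower calls of 26 tested (15.4%), the Kenyon cell genes Pka-C1, Pka-R2, Dop1R1 and 14-3-3zeta, and CaMKII was at log2 0.18. None of these 4 was called without robust estimation (adjusted p up to 0.082), without knockdown 2 or without control 2 or 3.

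The study sampled the same genotypes in mature flies, which allows the effects at both ages to be compared. Only the count files of mature flies list an entry for the unc84 tag, so the listed features differ with age. What this means for the comparison was not tested. In a fit on the 10 mature libraries alone 13 of 9175 genes were called (0.142%). Of the 387 genes called in newly eclosed flies, 384 were tested in mature flies, where 222 (57.8%) had the same sign, against 53.3% of all genes tested at both ages. An unadjusted p under 0.05 in mature flies was found for 51 of them (13.3%), against 9.46% of all. Genes lower in newly eclosed flies had a median log2 of −0.86 there and −0.02 in mature flies, and genes that were higher had 0.72 and 0.07. Calls select large effects in the newly eclosed libraries, so smaller medians in mature flies follow in part from that choice. At both ages 3 genes were called, in the same direction: Ldh (log2 −1.80, and −2.18 in mature flies), dysf, a bHLH-PAS transcription factor gene (log2 −0.96 and −1.38) and Xxylt, a xylosyltransferase gene (log2 0.79 and 0.74). In newly eclosed flies dysf was at 18.3 and 22.7 against 42.4, 45.8 and 31.9 CPM and Xxylt at 85.6 and 98.1 against 45.7, 57.1 and 56.0 CPM. Their calls there ended without control 1 (adjusted p 0.0808 to 0.132), 2 (0.11 to 0.242) or 3 (0.0749 to 0.16, with Ldh), dysf also without knockdown 1 (0.181) and Xxylt without knockdown 2 (0.118), and dysf was not called in the fit on all 15 libraries (0.0635), with limma-voom (0.0743) or with upper-quartile scaling (0.0547). Neither dysf nor Xxylt was called without robust estimation (0.0527 to 0.0901). In edgeR's fit on the mature libraries MFS3 had log2 −1.61 (adjusted p = 0.0623) and Bap60 log2 −0.64 (adjusted p = 0.236), and neither was called there.

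The difference of the effect between ages was tested over all 15 libraries. edgeR called it for 186 of 11997 genes (1.55%), of which 104 were among the 387 (95 lower and 9 higher in newly eclosed flies). Among them were AstC, at log2 −1.29 in newly eclosed and 0.71 in mature flies (difference −2.06, adjusted p = 0.00657), salm (−1.69 and 0.15, difference −1.88, adjusted p = 0.00657), Vha36-1 (−1.06 and 0.23, difference −1.33, adjusted p = 0.00331), nrv2 (−0.87 and 0.16, difference −1.07, adjusted p = 0.00657) and cib (−1.41 and −0.27, difference −1.18, adjusted p = 0.00864). Mct1 differed with the opposite sign (1.26 and −0.03, difference 1.24, adjusted p = 0.0238). The 387 were chosen on the newly eclosed libraries that also enter the test of the age difference. Their share of the differences is therefore partly set by that choice. Ldh and MFS3 did not pass (adjusted p = 0.772 and 0.38), which does not show that they respond alike. This fit uses 1 spread for both ages, although it was larger in newly eclosed flies. limma-voom with 1 weight per age called no gene, with 1408 at an unadjusted p under 0.05, and edgeR called 108 genes without knockdown 1 and 457 without control 1.

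**Figure D5:**
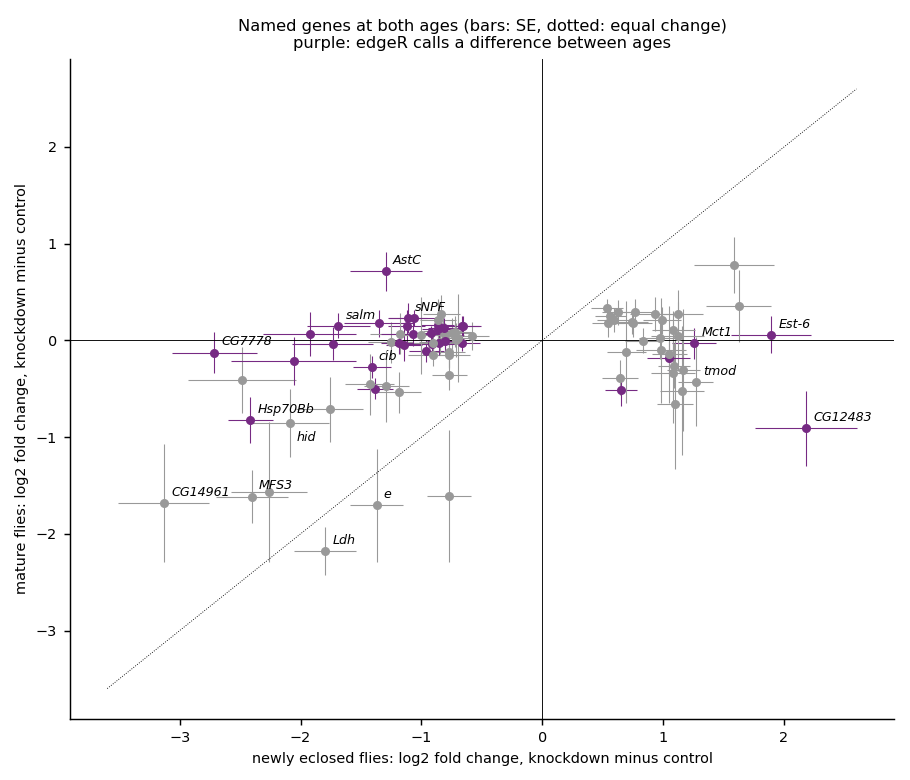
Log2 fold change (knockdown minus control) in newly eclosed flies (x axis) and mature flies (y axis) of 89 named genes called in newly eclosed flies, with SE bars. Purple marks the 32 genes whose difference between ages edgeR called. Most points lie near 0 on the mature axis, and Ldh lies near the dotted line of equal change. The genes were chosen by their calls in newly eclosed flies, which favours larger values on that axis.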

How the data were processed

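Nuclear RNA of 15 mushroom body samples was sequenced. The authors deposited raw read counts for each gene; per the submitters' processing notes STAR 2.5.3a, HTSeq 0.7.1 and build BDGP6 were used, and the strand setting is not given in the sources used here. Of 17559 gene IDs 17253 matched a symbol and position in the BDGP6 annotation. Among 110 genes described, 36 overlap another gene, 18 on the same strand, so their reads may be shared.

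The 5 newly eclosed libraries were fitted alone in edgeR 4.0.16 (R 4.3.3; robust quasi-likelihood, TMM, filterByExpr with minimum count 10 and total 15), which was tested on simulated data. DESeq2 1.42.0, limma 3.58.1 (voom), other scalings and filters and left-out libraries were alternatives. Bap60 had an exact permutation test. Named genes were the 12 largest and 12 smallest changes of properly named called genes of at least 5 CPM, 2 of any name each way, and up to 4 called members of each of 36 lists. Genes that complete a list's count, dysf and Xxylt, and some members not called were named after their values were seen. Members and lists were chosen with earlier results of these data known.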

Additional observations from a re-analysis of the deposited data

Results flagged for a closer look

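For 32 of the named genes the knockdown effect differed between newly eclosed and mature flies in edgeR's quasi-likelihood test over all 15 libraries. Values are the log2 effect in newly eclosed minus that in mature flies. Among secreted, stress and other genes with large changes, it was found for Est-6 (1.78, adjusted p = 0.0176), CG12483 (3.05, adjusted p = 0.0253), Hsp70Bb (−1.64, adjusted p = 0.046), GNBP-like3 (−1.89, adjusted p = 0.0373), GstD11 (−2.04, adjusted p = 0.0249), Elal (−1.75, adjusted p = 0.0111) and CG7778 (−2.63, adjusted p = 0.011). Among Kenyon cell, synaptic, peptide and channel genes it was found for jdp (−1.32, adjusted p = 0.0227), sNPF (−1.39, adjusted p = 0.0164), Syngr (−1.20, adjusted p = 0.0106), nrv2 (−1.07, adjusted p = 0.00657), Syt4 (−1.02, adjusted p = 0.0105), Rop (−0.86, adjusted p = 0.0208), ChT (−0.88, adjusted p = 0.0421), Task7 (−1.57, adjusted p = 0.0199) and AstC (−2.06, adjusted p = 0.00657). Among actin genes and their partners it was found for Act5C (−0.90, adjusted p = 0.0208), Act42A (−0.93, adjusted p = 0.0193), cib (−1.18, adjusted p = 0.00864) and sqh (−0.93, adjusted p = 0.0421). Among vacuolar ATPase genes it was found for Vha68-1 (−0.98, adjusted p = 0.0158), Vha16-1 (−1.04, adjusted p = 0.00657), Vha36-1 (−1.33, adjusted p = 0.00331) and VhaPPA1-1 (−0.85, adjusted p = 0.0248). Among genes of translation, mitochondria, metabolism, the eye and transcription it was found for eIF3l (−0.69, adjusted p = 0.0368), RpLP0 (−0.85, adjusted p = 0.046), ND-20 (−1.18, adjusted p = 0.0193), Mct1 (1.24, adjusted p = 0.0238), Lsd-1 (1.18, adjusted p = 0.0325), Cpn (−1.14, adjusted p = 0.0368), salm (−1.88, adjusted p = 0.00657) and Hr4 (1.12, adjusted p = 0.0352). limma-voom with 1 weight per age called no difference, with 1408 genes at an unadjusted p under 0.05. The genes were named for their change in the newly eclosed libraries, which also enter the edgeR test, so these differences are partly set by that choice.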

How the results depend on the processing

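The 387 calls (166 higher, 221 lower) became 800 (389 and 411) with DESeq2, 179 (69 and 110) without robust estimation, 167 (57 and 110) against a 1.2-fold change, 118 (45 and 73) at an adjusted p under 0.01 and 640 (185 and 455) with all 15 libraries in the fit. Upper-quartile scaling gave 427 calls, 266 of them higher. RLE scaling, limma-voom with sample weights, no filter and a stricter filter gave between 365 and 556. Leaving out 1 library gave 20 to 291 calls, 7 to 110 higher and 11 to 181 lower, and a Bap60 difference of −5.05 to −1.56 CPM. The 186 differences between ages became 0 with limma-voom with 1 weight per age and 108 to 457 without 1 library. Of 90 named genes 88 of the 88 with a DESeq2 value were called by it, and 9 to 63 were called without 1 library. No direction turned under any alternative run.

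Same-numbered libraries had deviation correlations of −0.037 and 0.01, and other pairs −0.053 to 0.053. The 2 knockdown libraries deviate from their mean by exact opposites, so these values cannot show whether replicate numbers pair the samples. With the replicate number as a block the age difference was called for 84 genes. In newly eclosed flies such a block gave 376 calls (173 higher, 203 lower). Control 3 has no knockdown library of its number, so it adds nothing to the group difference there. Of the 387 calls 253 (65.4%) were kept, 21 of the 90 named genes lost theirs (adjusted p up to 0.505), no learning and memory gene was called, and 3 testis markers were called higher. The causes of these changes were not tested, and 2 libraries in the smaller group limit every result.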
